A study of Mus musculus with 10 samples.

Results

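This account covers genes of the non-collagen extracellular matrix and of mesenchymal cells in mouse pancreatic islets, namely matrix glycoproteins, proteoglycans, basement membrane proteins and markers of pericytes and fibroblasts. Members were the probes whose gene symbol on the array was 1 of 48 listed genes. The rule found 54 of the 23512 probes, and these stood for 47 genes, of which 7 had more than 1 probe. Lamb1, the remaining gene, is listed under an older symbol and was kept out of all counts. All 47 genes could be tested, among 19557 genes tested in all.

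Islets were isolated from obese db/db mice, homozygous for a loss-of-function leptin receptor mutation, and from lean heterozygous db/+ mice, both on the C57BLKS/J background and 9 weeks old. There were 5 biological replicates in each group, each hybridised to its own array with 2 dyes. Islet RNA of the mouse group carried Cy5, and Cy3 always carried a control RNA that the labels describe as 9-week db/+ islets. According to the labels, db/db mice of this age have high blood glucose and an insulin level that is only moderately raised and lower than it was earlier. The series asks which genes are up- or down-regulated in db/db islets. Isolated islets also hold blood vessels, nerves, immune cells and adhering exocrine tissue, and a change in such bulk RNA cannot tell more or fewer cells of a type from more or less RNA per cell.

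Each array held values for 22657 to 23365 of the probes, and the median log2 ratio was 0 on every array. Precision is limited by the 5 arrays per group, and limma p-values set a difference against the spread among these replicates, moderated over all genes. The beta cell genes Iapp, Slc30a8 and Slc2a2 lay at mean reference intensities of 15.8 to 18.6 units, near the top of the scale. They had no ratio on any db/+ array and were not tested. Genes of acinar cells, the enzyme-secreting exocrine cells, were also bright, Cpa1 at 16.1 units among them. In the Cy3 channel, which held the same reference throughout, 0 of the 47 genes passed an adjusted p of 0.05 between the arrays of the groups in limma (2 at an unadjusted p under 0.05), against 0.0153% of all genes.

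The islet capillary network is wrapped in a basement membrane of laminins, nidogens, perlecan and collagen IV, made by endothelial cells and by pericytes. Around it lies an interstitial matrix of collagen fibrils, elastic fibres and proteoglycans, made by fibroblasts and stellate cells. Matricellular proteins such as periostin and tenascin C are secreted into this matrix mainly in development, injury and remodelling, and act on cells more than they build structure.

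Higher calls outnumbered lower ones among the listed genes. Of the 47 genes, 24 passed as higher and 3 as lower in db/db islets at a limma adjusted p under 0.05, and 20 did not pass. Among all genes tested, 17.1% were higher and 18.1% lower. Some 15 of the 47 rose 2-fold or more, against 3.10% of all genes. The groups did not overlap on any array for 17 genes that were higher and 3 that were lower in db/db, against 12.9% and 13.2% of genes with 10 values. The median log2 difference over the 47 genes was 0.55, and over all genes -0.02. Quantile normalization between arrays left 11 higher and 1 lower, where 8.57% and 7.71% of all genes passed, and the median was then 0.39. The largest rises were those of Lum, Postn and Tnc, followed by Fbln2 on the brighter of its 2 probes only, and the falls were Lamc1, Nid2 and S100a4.

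**Figure D1:**
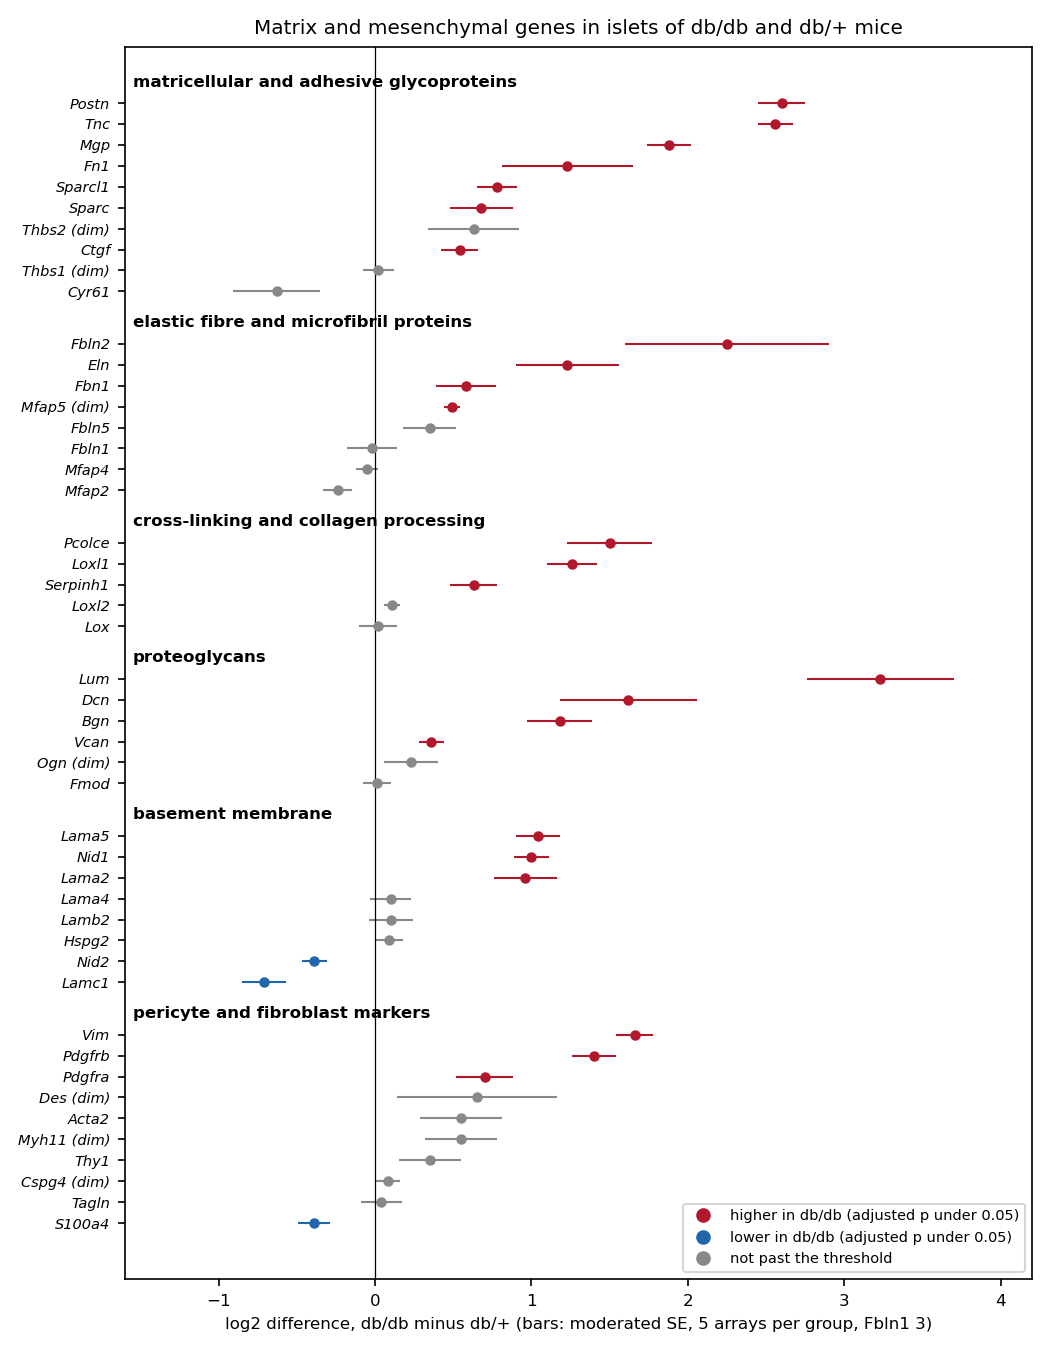
Log2 difference of the ratio to the reference, db/db minus db/+, for each of the 47 genes by class, with the moderated standard error as a bar; red points passed as higher, blue as lower and grey points did not pass an adjusted p of 0.05. Lum lies farthest to the right at 3.23 and Lamc1 farthest to the left at -0.71.

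Periostin (Postn), a secreted protein that binds integrins and aids collagen cross-linking, had log2 ratios to the reference of 2.46, 2.70, 2.83, 2.35 and 2.74 on the db/db arrays of replicates 1 to 5, against 0.24, 0.35, 0.00, -0.36 and -0.15 on the db/+ arrays. Every db/db array lay more than 1 log2 unit above every db/+ array. The rise was 6.07-fold (log2 difference 2.60 ± 0.15 SE, adjusted p = 2.74e-06). Tenascin C (Tnc), a large glycoprotein of remodelling tissue, gave 2.72, 2.73, 2.32, 2.47 and 2.40 in db/db and 0.08, 0.00, -0.25, -0.15 and 0.19 in db/+. It rose 5.88-fold (2.56 ± 0.11 SE, adjusted p = 6.89e-07), again with a wide gap between the groups. In Cy5 it averaged 1.19 ± 0.15 units in db/db and 0.198 ± 0.0319 units in db/+ (SD, n = 5 each). Vimentin (Vim), the intermediate filament protein of mesenchymal cells, gave 1.69, 1.74, 1.66, 1.39 and 1.47 in db/db and 0.34, -0.26, -0.08, -0.21 and -0.10 in db/+, a rise of 3.15-fold (1.66 ± 0.12 SE, adjusted p = 9.38e-06). S100a4, a calcium-binding protein used as a fibroblast marker and also made by immune cells, went the other way. Its log2 ratios were -0.52, -0.19, -0.26, -0.23 and -0.44 in db/db, against 0.29, -0.07, -0.15, 0.11 and 0.13 in db/+. The groups were close but did not overlap, and the fall was 1.31-fold (-0.39 ± 0.10 SE, adjusted p = 0.0114). Quantile normalization, the replicate block and an acinar covariate (the mean of 10 acinar genes on each array) each ended this call (adjusted p up to 0.197). All 10 acinar genes had negative log2 differences, so the covariate partly follows the groups.

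Promoters are shown for Postn, Tnc and Vim, among the largest rises, and for S100a4, 1 of the 3 falls. These are the genes that passed and whose promoters held TATAAA, so the choice rests on the match too. No promoter was available for Lum or Mgp, which rose more than Vim. That of Nid1, which rose and had no TATAAA, is not shown. Each sequence runs from 250 bases before to 50 bases after the annotated start and is taken from RefSeq (GRCm38.p6), on the gene's strand. Capitals mark TATAAA, the core of the TATA box. Postn lies at chr3:54360857-54361156 on the plus strand, Tnc at chr4:64046966-64047265 on the minus strand, Vim at chr2:13574061-13574360 on the plus strand and S100a4 at chr3:90603520-90603819 on the plus strand.
Postn: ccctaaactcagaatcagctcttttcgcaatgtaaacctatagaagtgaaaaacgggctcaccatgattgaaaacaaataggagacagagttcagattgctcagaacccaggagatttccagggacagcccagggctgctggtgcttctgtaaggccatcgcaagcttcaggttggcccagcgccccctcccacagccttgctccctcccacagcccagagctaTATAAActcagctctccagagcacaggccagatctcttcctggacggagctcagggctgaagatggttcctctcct
Tnc: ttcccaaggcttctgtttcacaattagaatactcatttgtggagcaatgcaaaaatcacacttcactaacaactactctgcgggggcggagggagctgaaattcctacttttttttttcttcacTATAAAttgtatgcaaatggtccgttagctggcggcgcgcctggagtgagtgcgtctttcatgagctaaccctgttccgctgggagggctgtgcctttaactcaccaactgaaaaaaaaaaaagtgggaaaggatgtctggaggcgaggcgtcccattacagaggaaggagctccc
Vim: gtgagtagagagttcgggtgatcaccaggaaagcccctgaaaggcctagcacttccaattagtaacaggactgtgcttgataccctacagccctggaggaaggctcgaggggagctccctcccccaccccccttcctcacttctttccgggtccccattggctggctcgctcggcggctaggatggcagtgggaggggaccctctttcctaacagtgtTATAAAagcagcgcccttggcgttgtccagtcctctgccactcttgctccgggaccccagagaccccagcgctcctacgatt
S100a4: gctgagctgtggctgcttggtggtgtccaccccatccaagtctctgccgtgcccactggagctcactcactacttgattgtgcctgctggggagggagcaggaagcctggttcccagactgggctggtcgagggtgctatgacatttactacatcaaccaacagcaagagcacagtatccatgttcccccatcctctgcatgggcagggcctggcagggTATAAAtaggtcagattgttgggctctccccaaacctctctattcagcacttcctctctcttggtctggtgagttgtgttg
The match begins 26 bases before the start in Postn, 32 in Vim, 31 in S100a4 and 126 in Tnc. For Postn and Tnc the table holds 2 promoters, and a promoter with a match is shown. TATAAA was searched on both strands. It occurred in 8 of the 32 promoters of the 27 matched genes, which were those of Postn, Tnc, Vim, S100a4, Cyr61, Thbs2 and Ogn, and in 13.6% of all 32851 promoters of this length. The genes with a match include risers, a faller and genes that did not pass. GGAATG, the core of the site read by TEAD factors, which act with YAP and are known for inducing Ctgf and Cyr61, was also searched on both strands. It occurred in 5 of the 32 promoters (Acta2, Cyr61, Mfap2, Nid1 and Ogn) and in 14.7% of all promoters.

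Of the 10 matricellular and adhesive glycoproteins, 7 rose and none fell, beside 17.1% and 18.1% of all genes. The median log2 difference was 0.73. Mgp, matrix Gla protein, an inhibitor of calcification, was the brightest of the strong risers, averaging 8.89 ± 1.94 units of Cy5 in db/db and 2.18 ± 0.405 units in db/+ (SD, n = 5 each). Its log2 ratios were 2.06, 1.83, 2.13, 1.40 and 1.68 in db/db, against 0.17, 0.06, -0.18, -0.21 and -0.14 in db/+. The rise was 3.67-fold (1.88 ± 0.14 SE, adjusted p = 1.29e-05). Sparcl1, a secreted relative of the collagen-binding protein Sparc, gave 1.14, 0.87, 1.07, 0.48 and 1.09 in db/db and 0.28, 0.15, -0.05, 0.20 and 0.15 in db/+. It rose 1.72-fold (0.78 ± 0.13 SE, adjusted p = 0.00102), with db/db replicate 4 nearest to the db/+ arrays. Sparc itself rose 1.60-fold (0.68 ± 0.20 SE, adjusted p = 0.0256), but its ratios of 0.30 to 1.16 in db/db overlapped those of -0.49 to 0.34 in db/+. Fibronectin (Fn1) ranged from 0.72 to 1.42 in db/db and from -1.08 to 1.21 in db/+, and rose 2.35-fold (1.23 ± 0.42 SE, adjusted p = 0.0444). The db/+ arrays were thus far more scattered than the db/db arrays. The call of Fn1 was lost without any 1 of 8 arrays, the exceptions being db/+ replicates 1 and 3 (adjusted p = 0.0527 to 0.101). That of Sparc was lost without db/db replicate 2 or db/+ replicate 3, 4 or 5 (adjusted p = 0.0531 to 0.0601). Both were also lost after quantile normalization.

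Ctgf and Cyr61 are members of the CCN family of matricellular proteins, induced by growth factors and by mechanical strain. Ctgf gave 0.40, 0.50, 1.06, 0.70 and 0.56 in db/db and 0.33, 0.14, -0.03, 0.06 and 0.03 in db/+. All db/db arrays were above all db/+ arrays, by a narrow margin, and the rise was 1.45-fold (0.54 ± 0.12 SE, adjusted p = 0.00751). It was lost after quantile normalization and with the acinar covariate, which partly follows the groups (adjusted p up to 0.240). Cyr61 gave 0.06, -0.25, -0.81, -0.78 and -0.78 in db/db and 0.35, 0.91, -0.38, 0.07 and -0.35 in db/+, overlapping groups with a log2 difference of -0.63 ± 0.28 SE (adjusted p = 0.109). It passed as lower with the replicate block and among the probes at or above the median intensity (adjusted p down to 0.0238). The difference between these relatives was not tested. The thrombospondins Thbs1 and Thbs2, adhesive proteins that also restrain vessel growth, lay below the limit of 0.049 units under which a probe is called dim here. For Thbs1 the log2 differences were 0.02 ± 0.10 SE on the brighter probe and -0.12 ± 0.17 SE on the other. The brighter probe gave 0.00, 0.00, 0.26, 0.00 and 0.26 in db/db and 0.42, 0.00, 0.00, 0.00 and 0.00 in db/+. Thbs2 differed by 0.63 ± 0.29 SE (adjusted p = 0.131). Intensities are rounded to 0.01 units, so ratios of dim probes move in coarse steps.

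**Figure D2:**
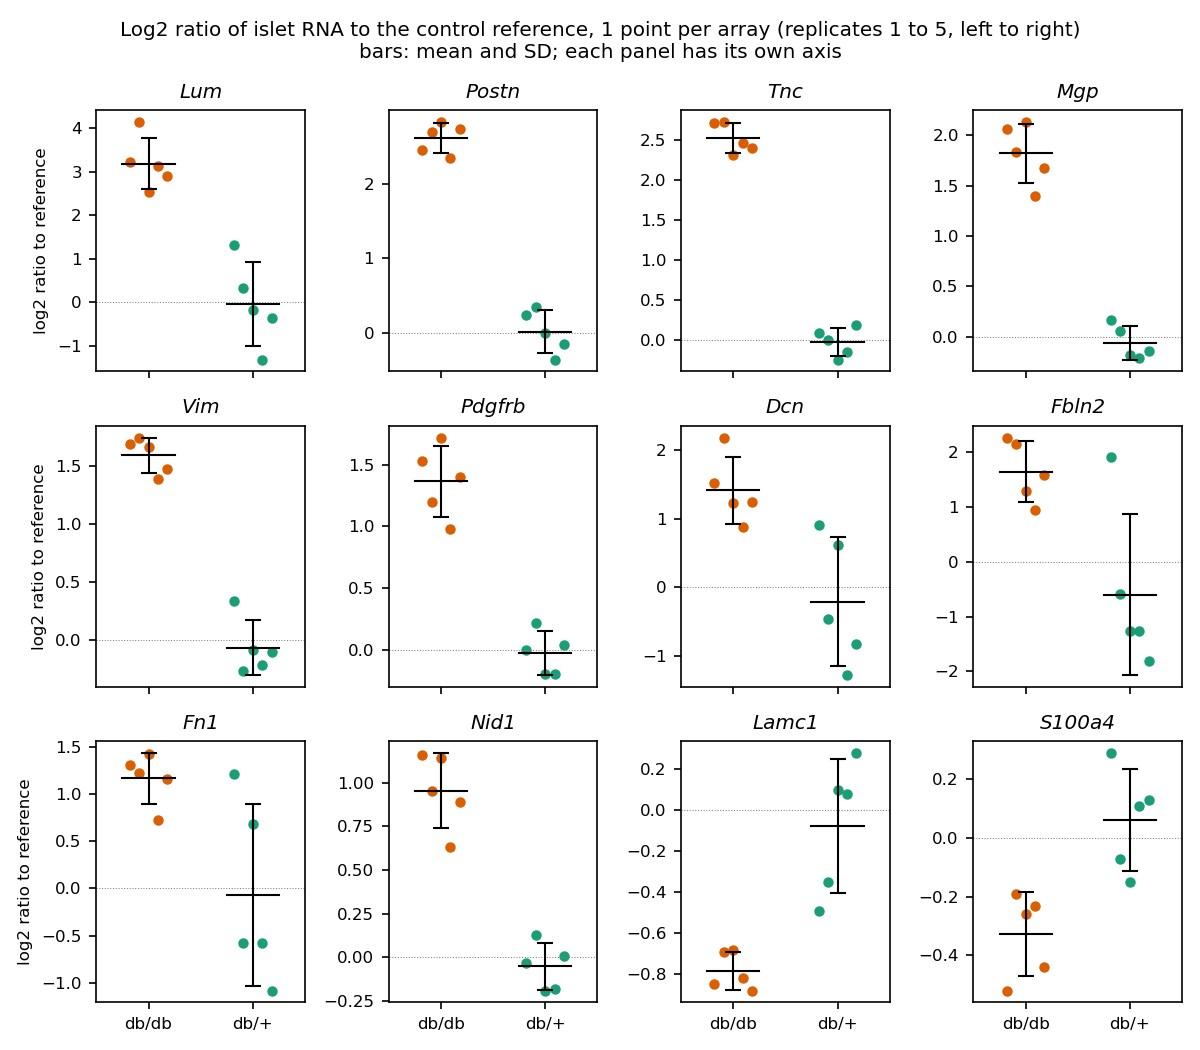
Log2 ratio of islet RNA to the reference for 12 genes, 1 point per array with the mean and SD of the 5 arrays of each group; each panel has its own axis. The groups are far apart for Postn and Tnc, overlap for Dcn, Fbln2 and Fn1, whose db/+ arrays scatter widely, and lie lower in db/db for Lamc1 and S100a4.

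Among 8 proteins of elastic fibres and microfibrils, 4 rose and none fell (median log2 difference 0.42), beside 17.1% and 18.1% of all genes. Fibulin 2 (Fbln2), which bridges elastic fibres, basement membranes and proteoglycans, had the largest difference, 4.77-fold higher (2.25 ± 0.65 SE, adjusted p = 0.0232). Its log2 ratios were 2.27, 2.15, 1.30, 0.95 and 1.58 in db/db, against 1.91, -0.58, -1.26, -1.26 and -1.81 in db/+. A single control array, db/+ replicate 1, lay within the db/db range, and the other 4 lay below the reference. Without db/db replicate 1 or 2 or db/+ replicate 3, 4 or 5 the call was lost (adjusted p = 0.0533 to 0.0574), and without db/+ replicate 1 the difference was 2.88. The second Fbln2 probe was dim and gave -0.02 ± 0.17 SE, and the mean of both probes did not pass. Elastin (Eln), the core of the elastic fibre, ranged from 0.87 to 1.70 in db/db and from -0.81 to 1.17 in db/+, and rose 2.34-fold (1.23 ± 0.33 SE, adjusted p = 0.0177), a call lost after quantile normalization (adjusted p = 0.36) and in the exact permutation test (0.0728). Fibrillin (Fbn1), the backbone of microfibrils, gave 0.51, 1.42, 0.65, 0.29 and 0.42 in db/db and 0.17, 0.22, 0.00, 0.00 and 0.00 in db/+. Its rise of 1.49-fold (0.58 ± 0.19 SE, adjusted p = 0.0404) was lost without db/db replicate 1 or 3 or without any 1 of the db/+ arrays (adjusted p = 0.0552 to 0.0847).

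Mfap5, a microfibril-associated protein, rose 1.41-fold (0.49 ± 0.05 SE, adjusted p = 7.04e-05). It gave 0.32, 0.58, 0.49, 0.49 and 0.58 in db/db and 0.00 on all 5 db/+ arrays. The probe was dim at 0.041 units, and its ratios rest on few rounding steps. Mfap2 was -0.24 ± 0.09 SE (adjusted p = 0.0536), and it passed as lower without db/db replicate 2 (adjusted p = 0.0358) or db/+ replicate 5 (0.0348), as well as under an intensity offset, a filter on dim probes, array weights and the replicate block. Fbln5, Fbln1 and Mfap4 gave 0.35 ± 0.17, -0.02 ± 0.16 and -0.05 ± 0.07 (SE) and did not pass. The values of Fbln1 rest on 3 arrays per group, since the others were blank.

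The cross-linking enzymes and the proteins that assist collagen processing were split. Of 5 genes 3 rose (Pcolce, Serpinh1 and 1 of the 3 lysyl oxidases) and none fell, beside 17.1% and 18.1% of all genes. The median log2 difference was 0.63. Pcolce, an enhancer of the protease that trims procollagen, gave 1.56, 2.07, 1.44, 0.83 and 1.41 in db/db and 0.53, 0.34, -0.17, -0.63 and -0.26 in db/+. It rose 2.83-fold (SE of the log2 difference 0.27, adjusted p = 0.00195) with no overlap. Loxl1, a lysyl oxidase needed for elastic fibres, gave 1.25, 1.65, 1.08, 0.81 and 1.46 in db/db and 0.17, 0.17, -0.19, -0.22 and 0.00 in db/+, 2.40-fold higher (1.26 ± 0.16 SE, adjusted p = 0.000241). Its relatives Lox and Loxl2 did not pass. Lox gave 0.02 ± 0.12 SE (adjusted p = 0.922), and Loxl2 0.11 ± 0.05 SE (adjusted p = 0.125). Serpinh1, the collagen chaperone of the endoplasmic reticulum, rose 1.55-fold on its brighter probe and 1.36-fold on the other (adjusted p = 0.00893 among genes and 0.00631 among probes). The brighter probe ranged from 0.20 to 0.97 in db/db and from -0.27 to 0.21 in db/+, so the groups just touched. Pcolce and Serpinh1 did not pass after quantile normalization, while Loxl1 did.

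Among the proteoglycans, 4 of 6 rose and none fell, beside 17.1% and 18.1% of all genes. Their median log2 difference was 0.77. Lumican (Lum), a small leucine-rich proteoglycan that spaces collagen fibrils, rose most of the 47 genes. It gave 3.22, 4.14, 2.53, 3.14 and 2.91 in db/db and 1.32, 0.32, -0.17, -1.32 and -0.36 in db/+, 9.37-fold higher (3.23 ± 0.47 SE, adjusted p = 0.000596). The db/+ arrays alone spanned more than 2 log2 units, yet none reached the lowest db/db array. Decorin (Dcn), its close relative, ranged from 0.88 to 2.18 in db/db and from -1.28 to 0.91 in db/+. It rose 3.08-fold (1.62 ± 0.44 SE, adjusted p = 0.0169) with an overlap of 1 array. Biglycan (Bgn) gave 1.14, 1.85, 1.42, 0.74 and 1.12 in db/db and 0.42, 0.26, 0.00, 0.00 and -0.32 in db/+, 2.26-fold higher (1.18 ± 0.21 SE, adjusted p = 0.00182). Versican (Vcan), a large hyaluronan-binding proteoglycan, gave 0.50, 0.64, 0.29, 0.24 and 0.29 in db/db and 0.00, 0.15, 0.00, 0.00 and 0.00 in db/+. The rise was 1.28-fold (0.36 ± 0.08 SE, adjusted p = 0.00611). Its other probe was dim at 0.0189 units, with -0.12 ± 0.12 SE, and Vcan no longer passed when both probes were averaged, when Cy5 was used alone, or after quantile normalization (adjusted p up to 0.118). Fibromodulin (Fmod) and osteoglycin (Ogn), of the same leucine-rich family, gave 0.01 ± 0.09 SE and 0.23 ± 0.17 SE. After quantile normalization Lum passed, and Dcn, Bgn and Vcan did not.

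The basement membrane genes did not move together. Of 8, 3 rose and 2 fell, beside 17.1% and 18.1% of all genes, and the median log2 difference was 0.10. Laminins are built of an alpha, a beta and a gamma chain. Lama5, an alpha chain of vascular and epithelial basement membranes, gave 1.00, 1.23, 0.92, 0.88 and 0.80 in db/db and 0.44, -0.20, -0.33, -0.12 and -0.18 in db/+, 2.06-fold higher (1.04 ± 0.14 SE, adjusted p = 0.000409). Lama2, the alpha chain of muscle and nerve, ranged from 0.28 to 1.34 in db/db and from -0.30 to 0.30 in db/+, 1.94-fold higher (0.96 ± 0.20 SE, adjusted p = 0.00522). Neither quantile normalization (adjusted p = 0.0639) nor the exact permutation test (0.0541) kept it past the threshold. The permutation test could pass only genes whose groups do not overlap. Lamc1, the gamma chain shared by most laminins, fell. It gave -0.85, -0.69, -0.68, -0.82 and -0.88 in db/db and -0.49, -0.35, 0.10, 0.08 and 0.28 in db/+, 1.63-fold lower (-0.71 ± 0.14 SE, adjusted p = 0.00376). The db/db arrays were tightly grouped and lay below all db/+ arrays. Lama4, the endothelial alpha chain, and the beta chain Lamb2 gave 0.10 ± 0.13 SE and 0.10 ± 0.14 SE. Perlecan (Hspg2) gave 0.09 ± 0.09 SE. Lamb1, read from the probe with the older symbol, was 1.33-fold higher (0.41 ± 0.10 SE, adjusted p = 0.00887).

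The nidogens, which link laminin to collagen IV, went opposite ways. Nid1 gave 1.16, 0.95, 1.14, 0.63 and 0.89 in db/db and -0.03, 0.13, -0.19, -0.18 and 0.01 in db/+. It rose 2.00-fold (1.00 ± 0.11 SE, adjusted p = 9.58e-05), and averaged 1.81 ± 0.233 units of Cy5 in db/db and 0.904 ± 0.102 units in db/+ (SD, n = 5 each). Nid2 gave -0.36, -0.68, -0.17, -0.36 and -0.36 in db/db and 0.00 on every db/+ array, 1.31-fold lower (-0.39 ± 0.08 SE, adjusted p = 0.00416). Its intensities averaged 0.068 units in db/db and 0.086 units in db/+, so the fall rests on few rounding steps. Of the 2 falls in this class, that of Lamc1 did not pass after quantile normalization (adjusted p = 0.217, the highest of its alternatives, the lowest being 0.000771).

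Among 10 markers of pericytes and fibroblasts, 3 rose, 1 fell and 6 did not pass, with a median log2 difference of 0.55. Over all genes, 17.1% rose and 18.1% fell. Besides Vim, both platelet-derived growth factor receptors rose. Pdgfrb, the receptor that marks pericytes and activated stellate cells, gave 1.53, 1.20, 1.72, 0.98 and 1.40 in db/db and 0.00, 0.22, -0.20, -0.20 and 0.04 in db/+, 2.63-fold higher (1.40 ± 0.14 SE, adjusted p = 6.70e-05). Its second probe gave nearly the same rise, 2.69-fold. Pdgfra, the receptor of fibroblasts, gave 0.85, 1.32, 0.45, 0.22 and 0.71 in db/db and 0.11, 0.00, 0.13, 0.00 and -0.19 in db/+, 1.63-fold higher (0.70 ± 0.18 SE, adjusted p = 0.0143). The lowest db/db array, replicate 4, was close to the db/+ arrays, and Pdgfra no longer passed under quantile normalization (adjusted p = 0.0669, the highest of its alternatives, the lowest being 0.00511).

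Genes of the contractile apparatus of smooth muscle and myofibroblasts did not pass. Acta2, smooth muscle actin, had probes of opposite sign. The brighter gave 0.84, 0.73, 0.38, 0.08 and 0.32 in db/db and 0.78, -0.19, -0.63, 0.00 and -0.35 in db/+ (log2 difference 0.55 ± 0.26 SE, adjusted p = 0.130). The other gave 0.14, 0.00, -0.42, -0.46 and -0.42 in db/db and 0.15, 0.14, -0.13, -0.17 and 0.17 in db/+ (-0.26 ± 0.14 SE). The brighter probe passed as higher without db/+ replicate 1 (0.76, adjusted p = 0.0119), so its call depends on that array. Tagln, transgelin, a bright gene at 2.79 units in db/db and 3.05 units in db/+, gave 0.04 ± 0.13 SE (adjusted p = 0.847). Myh11, the smooth muscle myosin, and Des, desmin, were dim at 0.023 and 0.021 units, with 0.55 ± 0.23 SE and 0.65 ± 0.51 SE. Des had 2.84 on db/db replicate 4 and at most 0.42 elsewhere, and in Cy5 used alone its difference was -0.29. Myh11 passed as higher with the replicate block and with the acinar covariate (adjusted p down to 0.0341). Cspg4, the pericyte proteoglycan also called NG2, was dim too and gave 0.00 on all db/db arrays (difference 0.08 ± 0.08 SE). Thy1, a surface protein of fibroblasts, neurons and lymphocytes, gave 0.35 ± 0.20 SE (adjusted p = 0.224), and passed as higher in Cy5 used alone (adjusted p = 0.0439).

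The arrays of a group differed in their log2 ratios for these genes. Over the 47 genes, the median log2 ratio was 0.51, 0.72, 0.45, 0.24 and 0.53 on the db/db arrays of replicates 1 to 5, and 0.17, 0.00, -0.08, -0.12 and -0.11 on the db/+ arrays. Replicate 2 was the highest db/db array for 20 of the 41 genes with a single highest value, and replicate 4 the lowest for 27 of the 40 with a single lowest value. In the db/+ group replicate 1 was the highest for 25 of 40 genes. The median SD within a group was 0.26 for these genes in db/db and 0.22 in db/+, against 0.15 and 0.13 for all genes. On db/+ replicate 1, 34 of the 47 genes lay above the reference, whereas 6 of 46 did on db/+ replicate 3. Without db/db replicate 4 and db/+ replicate 1 together, a choice made after the data were seen, 26 genes were higher and 3 lower. These arrays were most often the lowest in db/db and the highest in db/+, so dropping them favours higher calls by construction. The share of all genes is not set beside these counts.

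**Figure D3:**
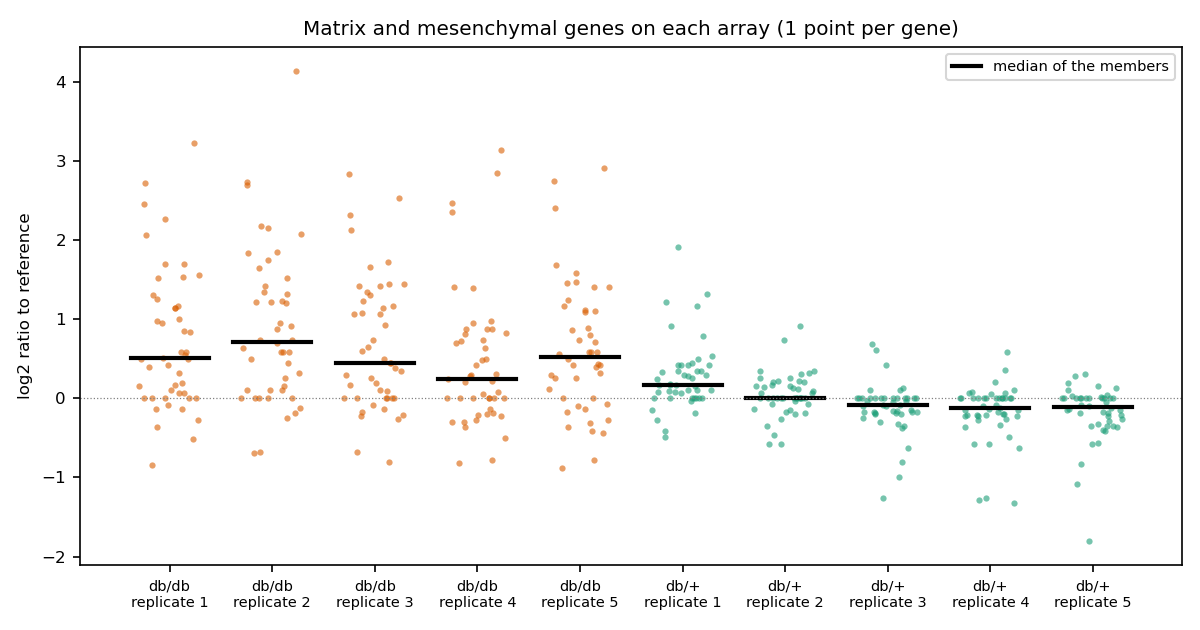
Log2 ratio to the reference of the 47 genes on each array, 1 point per gene, with the median as a black line. The medians of the db/db arrays lie between 0.24 and 0.72, all above those of the db/+ arrays, which lie between -0.12 and 0.17.

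Other genes of the matrix were counted from further lists, beside 17.1% of all genes higher and 18.1% lower. Of 18 fibrillar and basement membrane collagens, 14 rose and none fell, with a median log2 difference of 0.54; Col3a1 rose 6.55-fold, Col1a1 6.18-fold, Col18a1 4.07-fold and Col5a1 1.56-fold. Of 44 other matrix glycoproteins and proteoglycans, 11 rose and 5 fell (median 0.12). Tgfbi, a collagen-binding protein induced by TGF-beta, rose 3.99-fold, Smoc1, a relative of Sparc, 3.37-fold, Lama1 2.11-fold and Thbs3 1.55-fold. Among 25 matrix receptors, 5 rose and 2 fell (median 0.18), so the share that rose was near that of all genes. Cd44, the hyaluronan receptor, rose 7.87-fold (2.98 ± 0.13 SE, adjusted p = 8.87e-07). Itgb5 and Itgb8, integrin beta chains, rose 1.60-fold and 1.39-fold, with the Itgb8 probe dim, and the syndecan Sdc3 fell 1.28-fold.

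Markers of further cell types are given beside these results, and their part in them was not tested. Over all genes tested, 17.1% were higher and 18.1% lower. Of 16 other pericyte and smooth muscle genes 5 rose and none fell (median 0.09). Kcnj8, a potassium channel subunit of pericytes, rose 5.51-fold, Heyl 2.23-fold, Abcc9 1.86-fold from a dim probe and Rgs5 1.49-fold. Of 20 other fibroblast and stellate genes 9 rose and none fell (median 0.12), among them Fap, 2.39-fold from a dim probe, Fstl1, also dim, 1.89-fold, Dpt, 1.85-fold, and Pdpn, 2.67-fold. The endothelial list had 5 of 15 higher and 2 lower (median 0.19), with Egfl7 and Robo4 higher and Tie1 and Flt1 lower. Macrophage genes had 8 of 15 higher and none lower (median 0.39), Fcgr3, C1qa, Mpeg1 and Lyz2 among them. The summed Cy5 signal of the macrophage genes was 29.6 to 37.3 units on db/db arrays and 17.8 to 28.7 units on db/+ arrays, of which C1qa made up a mean of 14.2 units in db/db and 8.05 units in db/+, and Itgam 12.1 units in db/db and 12.2 units in db/+. That of the endothelial genes was 23.3 to 30.2 units in db/db and 16.1 to 23.1 units in db/+, with Plvap at a mean of 9.38 units in db/db and 4.96 units in db/+. For the other pericyte genes it was 5.81 to 7.01 units in db/db and 4.36 to 6.03 units in db/+. For the other fibroblast genes it was 8.01 to 9.63 units in db/db and 6.87 to 8.58 units in db/+. Most of this last sum came from Gsn, at a mean of 6.17 units in db/db and 5.12 units in db/+.

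Duct genes had 3 of 10 higher and none lower, namely Car2, Spp1 and Muc1. Of 5 mesothelial genes 1 rose, Upk3b, a share near the 17.1% of all genes. Of 7 adipocyte genes none passed in limma, the smallest adjusted p being 0.102, for Cidec. Acinar genes had none higher and 2 lower, Amy2b and Rnase1, of 10 tested, with a median of -0.68. Their summed Cy5 signal was 29.3 to 65.9 units in db/db and 51.4 to 78.4 units in db/+. Cpa1 and other acinar genes held too few values to test. With the acinar covariate, 23 of the 47 matrix and mesenchymal genes were higher and 2 lower, with a median log2 difference of 0.73. Without it 24 were higher and 3 lower, where 17.1% and 18.1% of all genes passed. The share of all genes that passed with the covariate is not set beside its counts. As the acinar genes lay lower in db/db, the covariate partly follows the groups. Of 8 beta cell genes tested 6 fell and none rose (median -0.43). Among the falls were Kcnj11, Gipr, Trpm5 and, from a dim probe, Mafa. Iapp, Slc2a2 and Slc30a8 could not be tested, having no ratio on any db/+ array. Of the other islet hormones, Sst was tested and fell.

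**Figure D4:**
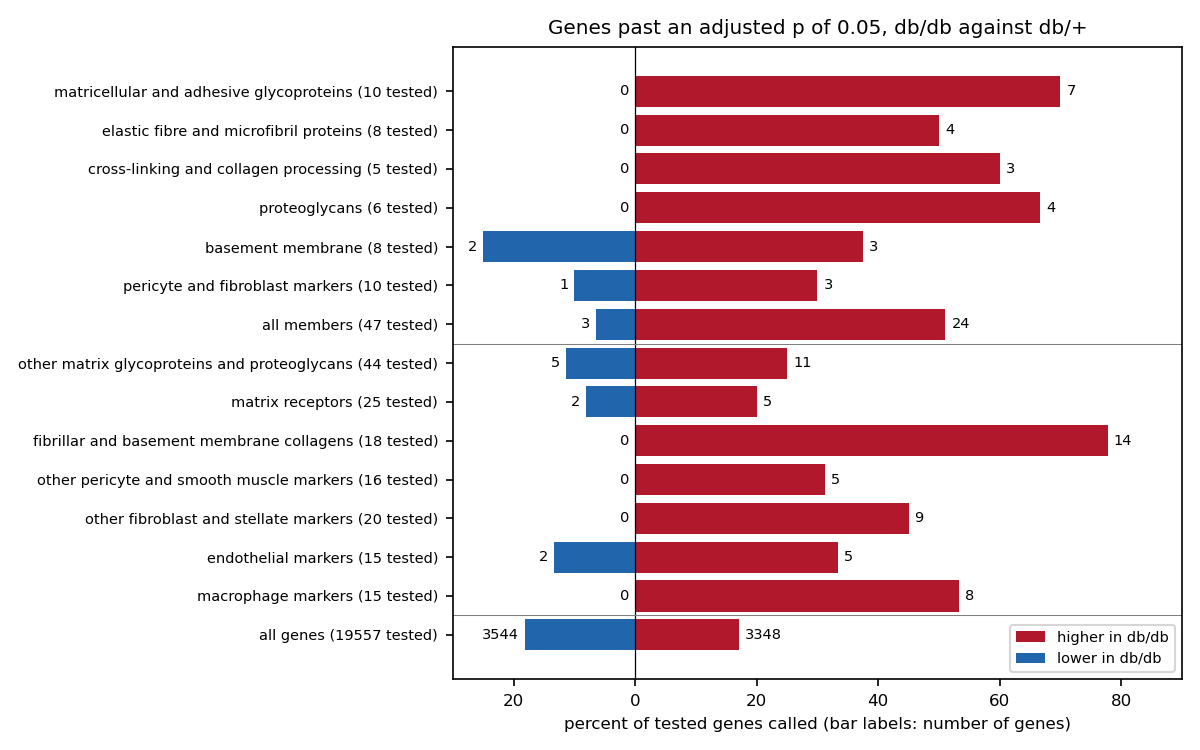
Percent of tested genes that passed an adjusted p of 0.05 as higher (red, to the right) or lower (blue, to the left) in db/db, for the classes of the 47 genes, for further lists and for all genes, with gene counts at the bars. All 47 genes together have 24 higher and 3 lower; over all 19557 genes the counts are 3348 and 3544.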

How the data were processed

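Islet RNA of 5 db/db and 5 db/+ biological replicates was compared on 10 arrays. Per the labels' protocols, Trizol extracts were amplified in a 2-round protocol from 100 ng of RNA. Feature Extraction 8.5.1.1 by Agilent read the images, per the submitters' processing notes. The deposited intensities of both channels are, per the file headers, Intensity 1 (Cy3, reference) and Intensity 2 (Cy5, islets), in arbitrary units mostly rounded to 0.01. The deposited log10 ratios equal the log10 of Cy5 over Cy3. The authors' deposited p-value compares the channels of each array. For background subtraction, dye normalization and blank spots, the method is not given in the sources used here.

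Deposited log10 ratios were turned into log2 ratios without further scaling or pseudocount. Array symbols were matched to RefSeq (GRCm38.p6) with 18956 probes named by symbol, 1775 by synonym and 612 by accession; 914 kept their own symbol and 1255 had none. A probe needed at least 3 values in each group, and the probe brightest in Cy3, on average, stood for its gene. Groups were compared over all 19557 genes by lmFit and eBayes of limma 3.58.1, run in R 4.3.3, with Benjamini-Hochberg adjustment over all genes, a threshold of 0.05 and no covariates; every adjusted p is limma's unless a permutation test is named. Folds are antilogs of the log2 difference between group means, and SE denotes the moderated standard error. The fit was tested on simulated data. A probe is called dim when its mean Cy3 intensity is under the lower quartile of 0.049 units. No dyes were swapped. Figures used Python 3.11.15 and matplotlib 3.10.9.

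Values on every array are given for called genes whose groups do not overlap and for genes whose probes disagree or that move against relatives. Other genes are given by range and counts, and of each further list up to 4 genes of smallest adjusted p. The markers with bright signal (Iapp, Slc30a8, Slc2a2, Cpa1, Itgam, Plvap, Gsn) were singled out after their values were seen. Genes, classes and lists were chosen with earlier results of these data known. Alternatives covered normalization, the reference channel, filters on dim or blank probes, several probes of a gene, variance models, array weights, the replicate block, an acinar covariate, an exact permutation test, thresholds and leaving out each array. Replicate numbers were shared by both groups, but the correlation of deviations between arrays of the same number was 0.031 to 0.205, so the numbers were not taken to pair samples. Whether the labelled biological replicates were single mice or pools is not given. The result of 1 further marker list is not reported here.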

Additional observations from a re-analysis of the deposited data

Results flagged for a closer look

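Of 92 groups of 5 arrays examined for the 47 genes, 8 held an array whose gap to the next was over 0.71 of the group's range (8.7%). Chance gives about 1 in 20 for continuous values, a rate that does not apply to the 5 cases (Vcan, Thbs1, Ogn, Cspg4 and Myh11) whose other arrays were tied at 0.00. In the genes that passed, these were Lama5 on db/+ replicate 1 (0.44, the others -0.33 to -0.12) and Vcan on db/+ replicate 2 (0.15, the others 0.00). In genes that did not pass, Thy1 lay at -0.19 on db/db replicate 4, the others at 0.39 to 0.54. The remaining 5 were dim probes. Des lay at 2.84 on db/db replicate 4, with the others at 0.00 to 0.42. Des signals in db/db went down to 0.00207 units of Cy5, and Cy3 on replicate 4 went down to 0.00028 units over all probes. In Cy5 used alone the Des difference was -0.29, so this ratio is not read as more Des RNA. In db/+, Thbs1 lay at 0.42 and Cspg4 at -0.42 on replicate 1, Ogn at 0.58 on replicate 4 and Myh11 at -1.0 on replicate 3, with the others at 0.00 in each case. Apart from the units and the Cy5 difference given for Des, values are log2 ratios to the reference.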

How the results depend on the processing

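No called gene among the 47 changed direction under the 27 alternatives, and 12 of the 27 calls were kept under each of the 25 that did not tighten the threshold and tested the gene. These 12 were Postn, Tnc, Mgp, Sparcl1, Mfap5, Loxl1, Lum, Lama5, Nid1, Nid2, Pdgfrb and Vim. Quantile normalization between arrays had the widest effect, with 11 of the 47 higher, 1 lower, a median log2 difference of 0.39, and 1677 genes higher and 1507 lower in all. It ended 15 calls (limma adjusted p = 0.063 to 0.453). This setting gives every array the same distribution by construction. Before it, the SD of the log2 ratios over all probes was 0.477 to 0.537 on db/db arrays and 0.194 to 0.309 on db/+ arrays. Whether this difference in spread caused the losses was not tested. Among probes at or above the median intensity 13 were higher, as only 23 of the 47 genes were then tested. An offset of 0.05 units, which shrinks the ratios of dim probes by construction, gave a median of 0.32, and the acinar covariate a median of 0.73. An adjusted p under 0.01 left 2260 genes lower, and a 1.5-fold minimum left 1 of the 47 lower and 1466 genes higher and 1132 lower. Without db/db replicate 4 and db/+ replicate 1 together, added after the data were seen, 26 were higher and 3 lower. Dropping these arrays favours higher calls by construction. Leaving out each array in turn gave 20 to 24 of the 47 higher, 3 to 4 lower, and medians of 0.49 to 0.64. With the replicate block, which the data do not show to be a pairing, 25 were higher and 4 lower; it added Cyr61, Mfap2 and Myh11 and ended S100a4. The exact permutation test, whose smallest p is 0.00794, left 17 higher and 3 lower, without Fn1, Sparc, Fbln2, Eln, Serpinh1, Dcn and Lama2. Only genes whose groups do not overlap reach that p, and the next step had a permutation adjusted p of 0.0541. Its counts thus repeat those of genes without overlap and are no separate check. For the replicate block, the permutation test, the acinar covariate, the 2 omitted arrays and each array left out, counts over all genes are not given. Rounding limits the ratios of the 7 dim genes.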

Other observations

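The authors' deposited p-values set each array's islet RNA against the reference. Postn, Tnc, Mgp, Sparcl1, Loxl1, Bgn, Nid1, Pdgfrb and Vim had a p under 0.01 on all 5 db/db arrays and on 0 of the 5 db/+ arrays. These genes are named for this pattern, and its share among all genes was not counted. The p-values come from the same arrays as the calls, so they are no separate support. Dcn had a p under 0.01 on all 5 db/db arrays and also on all 5 db/+ arrays. Fbln2 had one on 5 db/db and 4 db/+ arrays, Fn1 on 5 and 3, and Eln on 5 and 2. On the db/+ arrays the log2 ratios of these 4 genes had both signs.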
